A study of Mus musculus with 6 samples.

Results

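The phagocyte NADPH oxidase is the enzyme complex with which myeloid cells make superoxide. Its subunits were described in sorted hematopoietic stem cells (HSCs) with and without *Med23*, a subunit of the Mediator complex that links transcription factors to RNA polymerase II. The 6 genes *Cybb*, *Cyba*, *Ncf1*, *Ncf4*, *Rac1* and *Rac2* were taken from 34745 genes in the table. They were chosen by their read counts and fold changes in *Med23*-deficient (KO) against WT libraries, so that difference is given below as a description and with no test of the subunits as a set. The study asked how loss of *Med23* affects myeloid gene expression in HSCs. Bulk RNA-seq was made from HSCs of adult C57BL/6 mice, with 3 WT and 3 KO libraries. The cells were sorted from bone marrow as LSK cells (lineage-negative, Sca1-positive, cKit-positive) that were CD150+, CD34- and CD48-. The labels give the genotype of WT as Med23floxp/flowp, and that of KO as Mx1-cre;Med23floxp/flowp, so both groups carried the floxed allele and KO mice also carried the Cre. The *Mx1* promoter answers to interferon, and the study's mice received poly(I:C), an interferon inducer, to delete *Med23*. The sources used here do not say for these libraries whether the WT mice received it, so any effect of the Cre or of poly(I:C) cannot be told apart from that of *Med23*. The labels do not say whether replicates came from separate animals, and part of the spread between libraries may be technical.

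The oxidase has a membrane part, gp91phox (*Cybb*) bound to p22phox (*Cyba*), which carries electrons across the membrane to oxygen. It is silent until cytosolic subunits, among them p47phox (*Ncf1*) and p40phox (*Ncf4*), join it together with a Rac GTPase, *Rac2* being the main form in neutrophils and *Rac1* the form found in most cells. The complete set is a feature of neutrophils, monocytes and macrophages, and loss of a core subunit causes chronic granulomatous disease.

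The libraries held between 3537269 and 8131344 counts on genes, so that 3 counts, the smallest signal treated as detected, stood for 0.369 to 0.848 CPM (counts made comparable between libraries with edgeR's TMM factors). The level of *Med23* itself was 47.6, 70.8 and 24.1 CPM across the WT replicates, numbered 1 to 3, while the KO replicates stood at 31.6, 29.8 and 36.8 CPM, with a log2 fold change of -0.54 (SE 0.41). The library labelled WT replicate 3 thus lay below all 3 KO libraries for the targeted gene, and the subunits are given below with and without it. All 13 HSC markers examined, such as *Kit*, *Mecom* and *Procr*, were above 3 counts in every library. Their log2 fold changes were above 0 for 5 and below 0 for 8, with a median of -0.35. KO libraries lay below every WT library for 4 of them and above for 1, against 6.15% and 6.25% of all genes tested. Of 6 markers low or absent on the sorted cells 4 were tested, with 3 estimates above 0 and 1 below. Libraries stood apart in other ways. Skeletal muscle genes summed to between 157.4 and 400.2 CPM in WT and between 5.26 and 14.9 CPM in KO. The 4 Y-linked genes examined summed to 1 count in the library labelled WT replicate 3 and to 0 in KO replicate 3. Each of the others held at least 1036. The X inactivation transcript *Xist* had 4819 counts in the library labelled WT replicate 3 and 7853 in KO replicate 3. It had 30 and 108 in WT replicates 1 and 2, and 8 and 111 in KO replicates 1 and 2. Replicate 3 of each group thus had the pattern of female cells, and replicates 1 and 2 that of male cells. KO replicate 3 also held more reads of granulocyte-monocyte progenitor genes, which are given beside *Cybb*.

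In KO HSCs the cytosolic subunit *Ncf4* was counted 2.77-fold higher than in WT, *Rac1* was 2.79-fold lower and *Rac2* 1.30-fold higher, each without overlap between groups. *Ncf1* was 2.26-fold higher with overlapping groups, *Cyba* differed by 1.04-fold, and *Cybb* had more than 3 counts in only 1 of 6 libraries. In bulk samples a different share of cells of a type cannot be told apart from a different amount of RNA per cell. After removal of genes with low counts, 5 of the 6 subunits were tested, all except *Cybb*. edgeR's quasi-likelihood test with Benjamini-Hochberg adjustment over all genes called 0 of the 5, where it called 0.0719% of the 12513 genes tested. At an unadjusted p under 0.05 there were 2, *Ncf4* higher and *Rac1* lower, where 5.71% of all genes passed that level, 2.94% higher and 2.77% lower. DESeq2 called 1, *Rac1*, where it called 0.959% of all genes, or 0.559% as lower, and limma voom called 0 with 3 at an unadjusted p under 0.05, where 7.58% of all genes passed that level. KO libraries lay above every WT library for 2 subunits, a position held by 6.25% of genes tested, and below every WT library for 1, a position held by 6.15%. These counts follow from how the subunits were chosen.

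**Figure D1:**
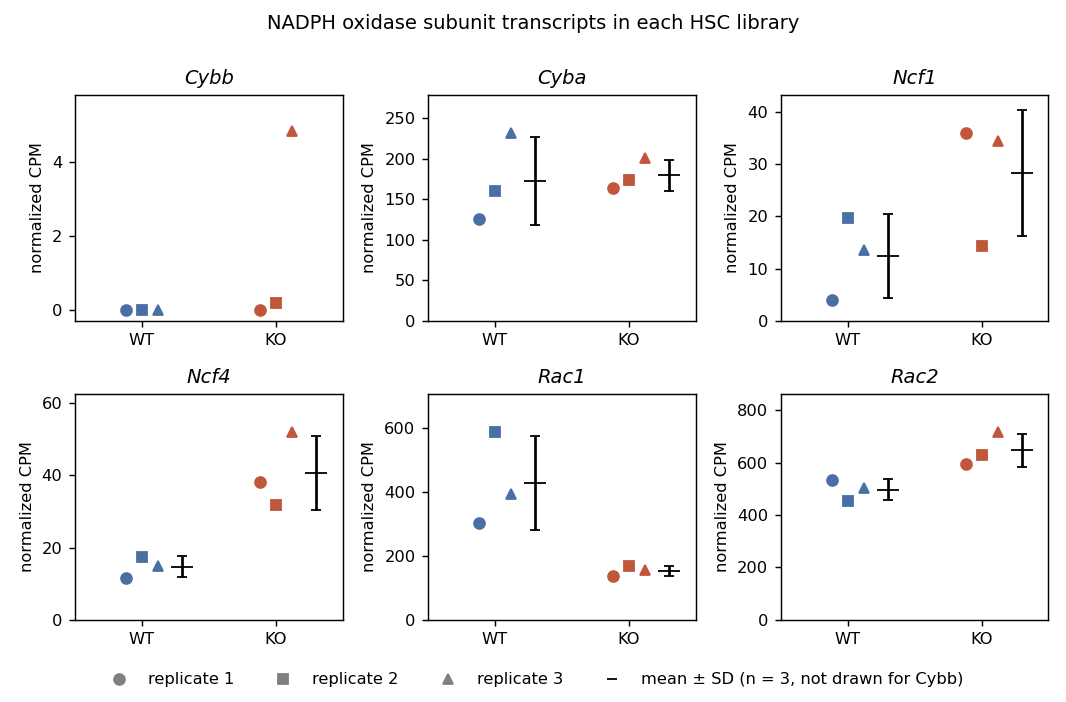
Normalized CPM of each subunit in 3 WT (blue) and 3 KO (red) HSC libraries, each panel with its own linear axis, where marker shape gives the replicate number and black marks the mean with SD (not drawn for *Cybb*). All KO libraries were above all WT libraries for *Ncf4* and *Rac2*, *Rac1* was lower, *Cyba* and *Ncf1* overlapped, and *Cybb* stood at 4.86 CPM in KO replicate 3 and at most 0.182 elsewhere.

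*Cybb* (ENSMUSG00000015340, GRCm38 chrX:9435252-9487771, minus strand) encodes the catalytic subunit that gives the enzyme its activity. No WT library held a read of it (0 counts in each of 3), and KO replicates 1 to 3 held 0, 1 and 24. The signal was thus that of a single library, KO replicate 3, and it was too low for a test. The same library held 867 counts of *Mpo* (myeloperoxidase), where the other libraries had 0 to 23. Its counts of the neutrophil elastase gene *Elane* were 115, against at most 10 elsewhere, and those of the cathepsin G gene *Ctsg* were 83, against at most 7. *Prtn3* (proteinase 3), by contrast, had 405, 1150 and 280 counts in WT and 1503, 1688 and 1756 in KO, and was higher in all KO libraries, with an adjusted p of 0.065 by edgeR's quasi-likelihood test and 1.5e-06 by DESeq2. The 8 granulocyte-monocyte progenitor markers together summed to between 90.2 and 147.5 CPM in WT, and to 316.1, 313.4 and 582.0 CPM in KO. Most of each sum came from *Prtn3* alone, at 83.0, 141.3 and 86.5 CPM in WT and 304.5, 307.2 and 355.3 CPM in KO. The higher sums in KO replicates 1 and 2 were thus mainly those of 1 gene. Of these 8 genes, 6 were above 3 counts in KO replicate 3 and 3 or 4 in each of the other libraries.

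**Figure D2:**
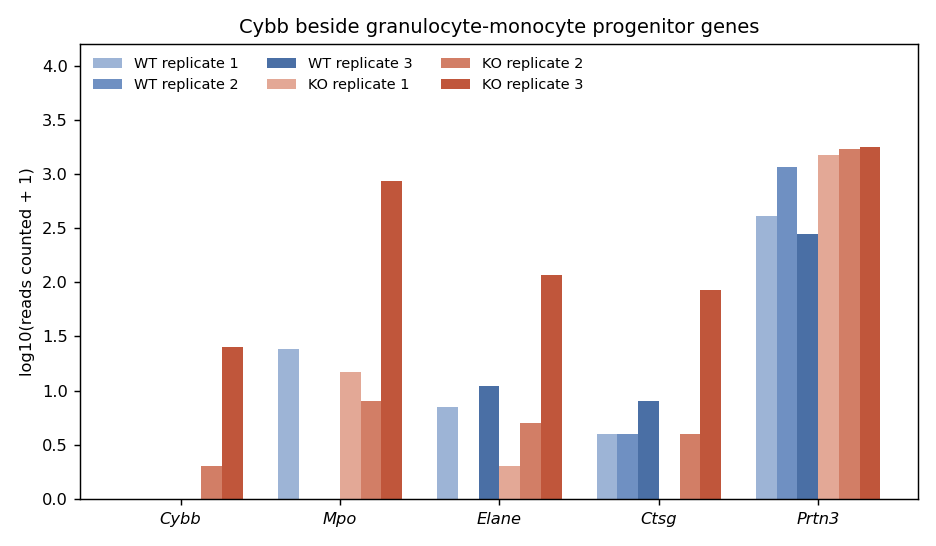
Reads counted in each library, as log10(count + 1), for *Cybb* and 4 granulocyte-monocyte progenitor genes, with 1 bar per library (WT in blues, KO in reds) and no bar where the count was 0. KO replicate 3 was the highest library for all 5 genes, with 24 counts of *Cybb* and 867 of *Mpo*, whereas *Prtn3* had at least 280 counts in every library.

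Markers of mature phagocytes, the cells that carry the complete oxidase, differed by cell type. The 12 neutrophil markers summed to between 2.58 and 10.8 CPM in WT and between 0.728 and 13.2 CPM in KO, a low level, and *Ltf*, *Mmp8*, *Stfa2l1* and *Cd177* were at 0 in all libraries. The 14 monocyte and macrophage markers summed to between 427.5 and 571.5 CPM in WT and between 458.5 and 536.0 CPM in KO, most of it from the lysozyme gene *Lyz2*. Of these 14 genes 5 were tested, and edgeR and DESeq2 called 0 with 0 at an unadjusted p under 0.05. Their estimates were above 0 for 2 and below 0 for 3, with a median log2 fold change of -0.05. Single genes of the list went either way. *Ccr2* had 0, 106 and 0 counts in WT and 0 in every KO library, and *F13a1* had 0, 42 and 2 in WT and 0 in every KO library. These monocyte genes were thus highest in WT replicate 2. The Fc receptor gene *Fcgr1* had 0 counts in every WT library and 10, 6 and 43 in KO. The macrophage gene *Adgre1* also had 0 in every WT library and had 2, 11 and 20 in KO. *Fcgr1* and *Adgre1* were thus highest in KO replicate 3, as *Cybb* was, and were named for that after their values were seen. *Cybb* lies on the X chromosome, and replicate 3 of each group was the library almost without Y-linked counts, with 0 counts of *Cybb* in the library labelled WT replicate 3 and 24 in KO replicate 3. The part of progenitor or mature cells in the *Cybb* signal was not tested.

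*Cyba* (ENSMUSG00000006519, GRCm38 chr8:122424776-122432930, minus strand) encodes the partner that holds the catalytic subunit stable in the membrane, and it also serves oxidases outside phagocytes. Its normalized CPM was 125.3, 160.1 and 232.1 in WT and 164.1, 173.6 and 200.3 in KO. The KO libraries lay within the WT range, with means of 172.5 ± 54.5 (SD, n = 3) in WT and 179.4 ± 18.8 (SD, n = 3) in KO. The log2 fold change was 0.06 (SE 0.26), smaller than its error. Its sign rested on single libraries, since it was -0.12 without WT replicate 1, -0.02 without KO replicate 3 and 0.33 without the library labelled WT replicate 3. *Cyba* was thus abundant in libraries in which its partner *Cybb* had no counts, as was seen in all 3 WT libraries and KO replicate 1.

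Upstream sequence was at hand for 3 of the 6 subunits, *Cybb*, *Cyba* and *Ncf1*, in the RefSeq promoter table (GRCm38.p6). The 250 bases before each start are shown because they differ in composition between the membrane subunit with almost no reads and the abundant one. Capitals mark CCAAT (the CCAAT box) in *Cybb* and GGGCGG (the GC box, bound by Sp family factors) or its reverse complement CCGCCC in the others. They stand for chrX:9469325-9469574, chr8:122432941-122433190 and chr5:134229626-134229875, all on the minus strand. The *Cybb* window lies inside the bounds given above for that gene. It precedes the RefSeq start and not the outermost end of the GENCODE gene.
Cybb: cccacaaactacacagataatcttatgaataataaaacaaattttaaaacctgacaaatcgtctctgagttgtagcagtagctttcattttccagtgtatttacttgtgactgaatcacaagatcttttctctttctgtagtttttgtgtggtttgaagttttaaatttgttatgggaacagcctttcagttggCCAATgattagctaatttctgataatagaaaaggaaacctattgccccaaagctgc
Cyba: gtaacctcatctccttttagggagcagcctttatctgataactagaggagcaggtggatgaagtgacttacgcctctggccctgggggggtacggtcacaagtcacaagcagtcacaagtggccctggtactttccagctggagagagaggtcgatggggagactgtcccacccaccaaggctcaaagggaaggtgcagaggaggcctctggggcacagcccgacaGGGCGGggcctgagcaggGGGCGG
Ncf1: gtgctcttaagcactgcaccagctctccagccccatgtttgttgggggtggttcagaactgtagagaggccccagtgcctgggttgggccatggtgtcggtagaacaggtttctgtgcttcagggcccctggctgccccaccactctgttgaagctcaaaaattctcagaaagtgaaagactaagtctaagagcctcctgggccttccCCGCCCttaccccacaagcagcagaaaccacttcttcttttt
The share of G and C was 34.0% in *Cybb*, 60.0% in *Cyba* and 54.4% in *Ncf1*. *Ncf1* was nearer to *Cyba* in this share, though its mean level in WT was 12.4 CPM against 172.5 CPM for *Cyba*. A link between composition and level was not tested. *Cybb* held CCAAT from -56 to -52, counted back from the base before the start. *Cyba* held GGGCGG from -24 to -19 and from -6 to -1, and *Ncf1* held it on the reverse strand from -42 to -37. GAGGAA, a form of the core of PU.1, the myeloid factor encoded by *Spi1*, was searched on both strands of the same windows. For this they were extended to 300 bases by the first 50 bases of the transcript. Shorter forms of the core were not searched, so the windows cannot be said to lack them. GAGGAA was found in *Cybb* only, on the reverse strand from +10 to +15, within chrX:9469298-9469327 on the minus strand. It is written here in capitals as TTCCTC.
Cybb PU.1 core: tgctgttttcatTTCCTCatcagaagaaga
Such short letters are common: of 32851 promoter windows of 300 bases, 28.3% held GAGGAA, 37.4% held CCAAT and 35.7% held GGGCGG on either strand. The 3 motifs were chosen after the sequences were seen, and a match is a description of letters and not of binding.

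*Ncf4* (ENSMUSG00000071715, GRCm38 chr15:78244801-78262580, plus strand) encodes p40phox, which binds a phosphoinositide of the phagosome membrane and sustains superoxide production there. It was counted at 57, 142 and 48 reads in WT and at 188, 175 and 257 reads in KO. In normalized CPM these were 11.7, 17.5 and 14.8 in WT and 38.1, 31.8 and 52.0 in KO. The lowest KO library was thus above the highest WT library, and the means were 14.7 ± 2.89 (SD, n = 3) and 40.6 ± 10.3 (SD, n = 3). The log2 fold change was 1.47 (SE 0.40), the same to 2 decimals without the library labelled WT replicate 3, and 1.25 without KO replicate 3, the library rich in progenitor transcripts.

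*Ncf1* (ENSMUSG00000015950, GRCm38 chr5:134220053-134229625, minus strand) encodes p47phox, the organiser whose phosphorylation starts assembly. Its counts were 19, 161 and 44 in WT and 178, 79 and 170 in KO. Normalized CPM was 3.90, 19.8 and 13.6 in WT and 36.1, 14.4 and 34.4 in KO. KO replicates 1 and 3 were above all WT libraries, whereas KO replicate 2 was below WT replicate 2, so the groups overlapped. The means were 12.4 ± 8.01 (SD, n = 3) in WT and 28.3 ± 12.1 (SD, n = 3) in KO, and the log2 fold change was 1.18 (SE 0.62). It was 1.24 without the library labelled WT replicate 3, 1.02 without KO replicate 3 and 0.75 without WT replicate 1, the library with the lowest level. Within the annotated exons of *Ncf1*, 408 of 3663 bases (11.1%) are shared with *Gtf2ird2* on the other strand. *Gtf2ird2* had 153, 345 and 43 counts in WT and 276, 108 and 268 in KO, with overlapping groups and a log2 fold change of 0.57 (SE 0.52). The sources used here do not say whether strand was used in counting, so reads in the shared bases cannot be told apart.

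*Ncf4* and *Ncf1* were also set beside each other within each library. The ratio of *Ncf4* to *Ncf1* in FPKM (the deposited values, scaled for transcript length and library size) was 6.47, 1.90 and 2.35 in WT and 2.28, 4.78 and 3.26 in KO. That ratio overlapped between groups, and *Ncf4* was the higher of the pair in all 6 libraries.

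*Rac1* (ENSMUSG00000001847, GRCm38 chr5:143503634-143528036, minus strand) encodes the widely expressed Rac GTPase. It had 1471, 4785 and 1270 counts in WT and 670, 926 and 768 in KO. Normalized CPM was 301.6, 588.1 and 392.5 in WT and 135.7, 168.5 and 155.4 in KO. The KO libraries lay close together and below every WT library, with means of 427.4 ± 146.4 (SD, n = 3) in WT and 153.2 ± 16.5 (SD, n = 3) in KO. The log2 fold change was -1.48 (SE 0.26), and it was -1.18 without WT replicate 2, the highest library, and -1.54 without the library labelled WT replicate 3. The 12 skeletal muscle genes examined moved with the groups too, at 228.2, 157.4 and 400.2 CPM in WT and 8.71, 14.9 and 5.26 CPM in KO. The part of muscle RNA in the level of *Rac1* was not tested.

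*Rac2* (ENSMUSG00000033220, GRCm38 chr15:78559167-78572783, minus strand) encodes the Rac GTPase of blood cells. It had 2599, 3695 and 1632 counts in WT and 2939, 3465 and 3547 in KO. Normalized CPM was 532.9, 454.1 and 504.4 in WT and 595.4, 630.6 and 717.8 in KO. All KO libraries were above all WT libraries, by a smaller factor than for *Ncf4*, with means of 497.1 ± 39.9 (SD, n = 3) and 647.9 ± 63.0 (SD, n = 3). The log2 fold change was 0.38 (SE 0.18), 0.39 without the library labelled WT replicate 3 and 0.31 without KO replicate 3.

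The KO estimates of *Rac1* and *Rac2* lay on opposite sides of 0, so the balance between the GTPases was followed within each library. The ratio of *Rac2* to *Rac1* in FPKM was 3.72, 1.63 and 2.71 in WT and 9.24, 7.88 and 9.73 in KO. The length implied by the FPKM values of *Rac1* was 6397 bases, against 4496 exon bases in the GENCODE M21 annotation. With M21 exon lengths the ratio was 2.56, 1.12 and 1.86 in WT and 6.36, 5.42 and 6.69 in KO. *Rac2* was thus the more abundant per length in every library, though only slightly in WT replicate 2 with M21 lengths. The lowest KO ratio was above the highest WT ratio with either length. This ratio rests on the same contrast as the choice of genes and is a description.

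Since the pair is closely related, the coding sequences were compared to see how far reads could be shared. The transcripts Rac1-201 and Rac2-201 each code over 579 bases, of which 446 (77.0%) are identical at the same position. The longest run without a difference was 29 bases, from 1 to 29. The last 60 coding bases, 520 to 579, are shown because the pair differs more there than at the start, and they encode the variable tail by which Rac proteins bind membranes. Capitals mark the 28 bases that differ, and the other 32 are identical.
Rac1: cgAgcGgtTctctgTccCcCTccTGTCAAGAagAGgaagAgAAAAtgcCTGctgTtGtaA
Rac2: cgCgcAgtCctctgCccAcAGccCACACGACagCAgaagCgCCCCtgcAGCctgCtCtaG
In the first 60 coding bases, by comparison, 51 were identical and 9 differed. A further limit is specific to *Rac1*: 2309 of its 4496 annotated exon bases (51.4%) are shared with *Daglb* on the other strand. *Daglb* had 275, 586 and 100 counts in WT and 196, 324 and 206 in KO. Its groups overlapped, with a log2 fold change of -0.19 (SE 0.37), against -1.48 for *Rac1*.

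How the subunits stood to each other was described per length with the deposited FPKM values. Mean FPKM over the 6 libraries was 229.7 for *Cyba*, 188.2 for *Rac2*, 44.9 for *Rac1*, 8.84 for *Ncf4*, 3.01 for *Ncf1* and 0.129 for *Cybb*. Among genes tested, *Cyba* and *Rac2* stood at the 99.3 and 99.1 percentiles of mean FPKM, *Rac1* at 91.5, *Ncf4* at 57.8 and *Ncf1* at 27.8. HSCs thus held much RNA for the membrane partner and the blood-cell GTPase, little for the cytosolic organiser and almost none for the catalytic subunit. Neighbours in this order were compared within each library on the scale of log2(FPKM + 0.1). The differences are given as a description with no p, since the genes and their order both came from these 6 libraries.

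*Cyba* and *Rac2*, at the top, differed by less than the spread between libraries. *Cyba* was higher in 5 of 6 libraries by a mean of 0.29 ± 0.35 (SD, n = 6) on the log2 scale. The order of this pair turned when exon lengths of the GENCODE M21 annotation were used, with a mean of -0.13. At each of the other 4 steps the higher gene was higher in 6 of 6 libraries. *Rac2* exceeded *Rac1* by 2.25 ± 1.07 (SD, n = 6), and *Rac1* exceeded *Ncf4* by 2.33 ± 1.60 (SD, n = 6) on the log2 scale. These values pool WT and KO libraries, and their SD includes the difference between the groups. Mean FPKM in WT and KO was 65.5 and 24.3 for *Rac1*, and 4.59 and 13.1 for *Ncf4*. *Rac1* thus stood further above *Ncf4* in WT than in KO. *Ncf4* exceeded *Ncf1* by 1.61 ± 0.64 (SD, n = 6), and *Ncf1* exceeded *Cybb* by 4.09 ± 1.24 (SD, n = 6). With M21 exon lengths these 4 steps had means of 1.71, 2.22, 1.39 and 4.91. The last step depends on the value of 0.1 added, since *Cybb* was listed at 0 in 4 libraries.

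**Figure D3:**
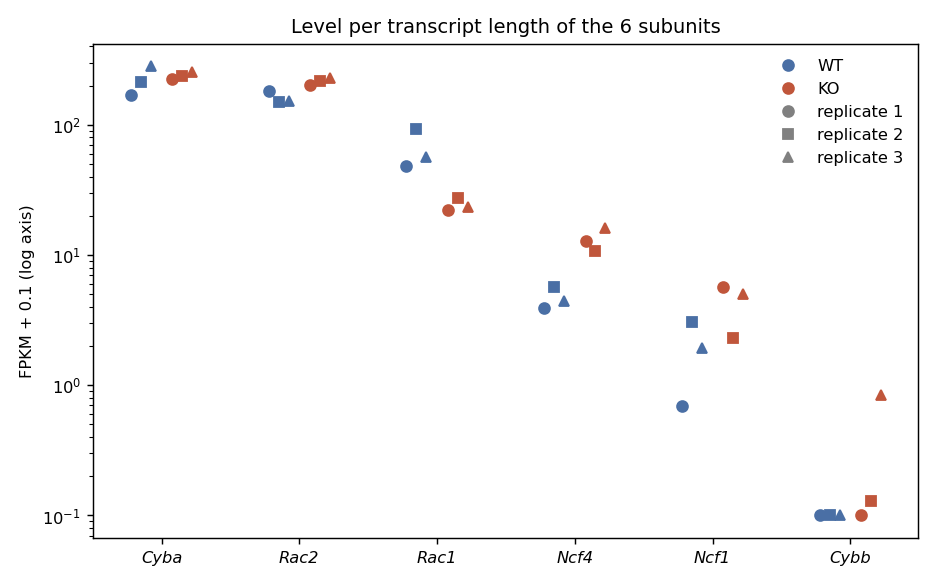
Level per length of the 6 subunits as FPKM + 0.1 on a log axis, in order of their mean, with WT in blue, KO in red and marker shape for the replicate number. *Cyba* and *Rac2* lie between 149.7 and 280.1 FPKM in all libraries, *Rac1* between 22.0 and 92.0, and *Cybb* is at 0 in 4 of 6.

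The other genes of the oxidase system were taken from lists of partners, regulators and related enzymes. The list of further oxidase genes held 16 symbols, of which *Cybc1* and *BC017643* name the same gene. In the table were 15, all except the symbol *Cybc1*, and 6 passed the filter on low counts. edgeR called 0 of these and 0 had an unadjusted p under 0.05, DESeq2 called 0, and 4 estimates were above and 2 below 0 with a median log2 fold change of 0.25. The median over all genes tested was -0.0054. The catalytic relatives *Nox1*, *Nox3*, *Nox4*, *Duox1* and *Duox2* had at most 2 counts in any library, and *Rac3*, the remaining Rac gene, had at most 22. The chaperone gene *Cybc1*, listed under its older symbol *BC017643* and needed for gp91phox protein, had 320, 459 and 147 counts in WT and 387, 396 and 420 in KO. Its log2 fold change was 0.49 (SE 0.27), and KO libraries were above every WT library once scaled for depth. *Noxa1*, which encodes an activator of non-phagocytic oxidases, had 29, 74 and 20 counts in WT and 1, 18 and 0 in KO, with a log2 fold change of -2.57 (SE 1.36).

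The regulators of Rac and the kinases of the cytosolic subunits are read beside the 5.71% of all genes with an unadjusted p under 0.05. All 18 Rac regulators were tested, edgeR called 0 and DESeq2 called 0, and 2 were higher at an unadjusted p under 0.05. The median log2 fold change was 0.19, with 12 estimates above 0 and 6 below. *Tiam1*, an exchange factor that loads Rac with GTP, had 126, 201 and 136 counts in WT and 215, 314 and 479 in KO, and its log2 fold change was 1.10 (SE 0.39) without overlap. *Racgap1*, which encodes a GTPase activating protein with a role in cell division, had 238, 355 and 117 counts in WT and 147, 158 and 110 in KO. The log2 fold change of *Racgap1* was -0.67 (SE 0.34) without overlap, and that of *Abr* was 0.41 (SE 0.22) without overlap. Of 16 kinases 15 were tested, edgeR and DESeq2 called 0, and 1 had an unadjusted p under 0.05. This was *Prkca*, a protein kinase C that phosphorylates p47phox, at 212, 505 and 185 counts in WT and 383, 536 and 375 in KO, with a log2 fold change of 0.63 (SE 0.28). The kinase median was 0.26, with 12 estimates above 0 and 3 below, and *Prkcd* was at 0.29 (SE 0.24) without overlap.

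Transcription factors known from oxidase promoters included the only gene of the 5 pathway lists that edgeR or DESeq2 called. These lists held 6, 18, 15, 11 and 9 genes tested, and over all genes edgeR called 0.0719% and DESeq2 0.959%. Of 12 factors 11 were tested, and *Irf8*, a myeloid interferon regulatory factor, had 17, 192 and 17 counts in WT and 440, 187 and 267 in KO. In normalized CPM *Irf8* was at 3.49, 23.6 and 5.25 in WT and at 89.1, 34.0 and 54.0 in KO. All KO libraries were above all WT libraries, and WT replicate 2 was the highest WT library. That library was also the highest in WT for *Ncf1*, *Ncf4* and *Rac1*, but not for *Cyba* or *Rac2*. The log2 fold change was 2.41 (SE 0.69), with an adjusted p of 0.47 by edgeR's quasi-likelihood test and 0.022 by DESeq2. edgeR called 0 of the factors, and 2 had an unadjusted p under 0.05, a level that 5.71% of all genes passed. The median log2 fold change was 0.31, with 7 estimates above 0 and 4 below. *Hoxa10* at 0.64 (SE 0.28) and *Hoxa9* at 0.46 (SE 0.23) were higher in all KO libraries, and *Irf2* at -0.25 (SE 0.19) was lower in all. *Spi1*, which encodes PU.1, had 914, 1970 and 913 counts in WT and 1143, 1667 and 1729 in KO, and its groups overlapped at a log2 fold change of 0.31 (SE 0.23). *Cebpa*, with 0, 1 and 0 counts in WT and 22, 19 and 7 in KO, was too low to be tested. Of 10 enzymes that act on superoxide or hydrogen peroxide 9 were tested, edgeR called 0, DESeq2 called 0 and 0 had an unadjusted p under 0.05. Their median log2 fold change was -0.07, with *Prdx3*, a mitochondrial peroxidase, at 0.22 (SE 0.21) and higher in all KO libraries. *Mpo*, also in that list, was at 5.24 (SE 2.38) with overlapping groups, its 867 counts in KO replicate 3 standing beside 14 and 7 in the other KO libraries.

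**Figure D4:**
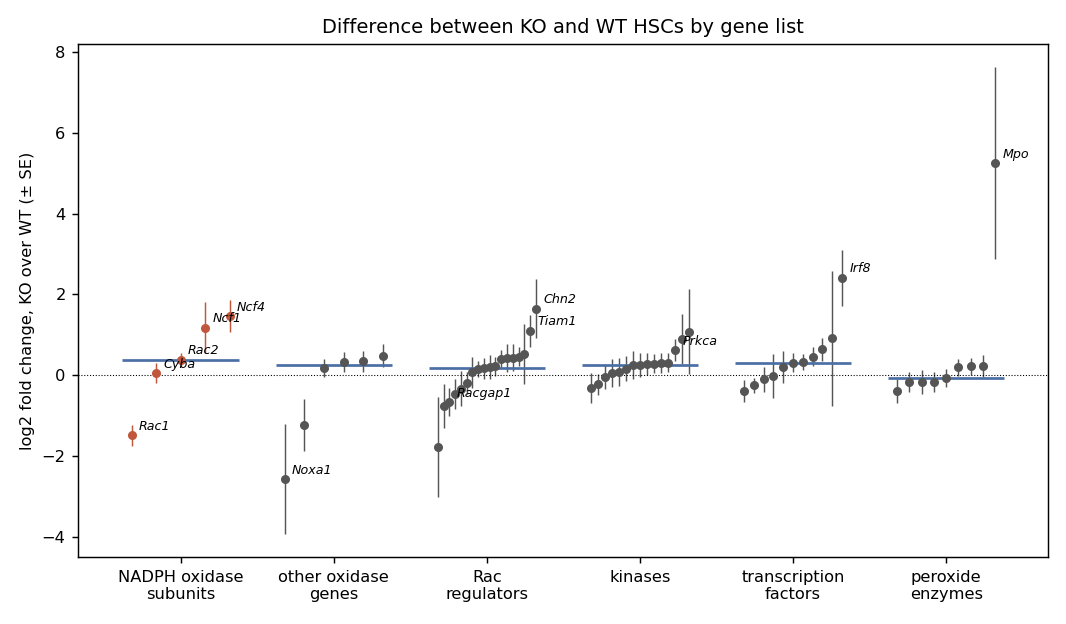
Log2 fold change of KO over WT with its standard error for the genes tested in 6 lists, each list ordered by its estimates, with a blue line at the list median. Subunits (red) ranged from -1.48 for *Rac1* to 1.47 for *Ncf4*, and list medians ranged from -0.07 for peroxide enzymes to 0.38 for the subunits.

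Genes whose level followed each subunit over the 6 libraries were sought among 10057 genes with a mean CPM of at least 10, by Pearson's r of log2(CPM + 0.5). The points share their libraries, depth and 2 groups, and r is a description. The 2 genes most like *Cyba* were *Fam117a* (r = 0.994) and *Plekhg2* (r = 0.993), and those most like *Ncf1* were *Sgpl1* (r = 0.990) and *Arhgef1* (r = 0.983). *Ncf4* was followed most closely by *Fyb* (r = 0.982) and *Cd53* (r = 0.981), both genes of blood cells. *Rac1* was followed by *9530082P21Rik* (r = 0.995) and *Chchd10* (r = 0.984), and *Rac2* by *Tuba1a* (r = 0.991) and *Cnot3* (r = 0.971). No subunit was among the 2 genes most like another, and between 13 and 44 genes per subunit had an r above 0.95.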

How the data were processed

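RNA-seq was made from 3 WT and 3 KO samples of sorted HSCs. The authors deposited reads counted per gene, with no normalization, and FPKM values, which equalled count over length over column total to within 0.0703% for 12312 genes. The submitters' processing notes name TopHat, HTSeq and mm10, whereas versions, strand setting and annotation were not given in the sources used here. The labels name SMART-Seq v4 and the study's methods TruSeq. Column totals were 3537269 to 8131344, and neither source describes molecular identifiers for the bulk libraries.

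Counts were fitted in R 4.3.3 with edgeR 4.0.16 (filterByExpr, TMM, robust quasi-likelihood test, Benjamini-Hochberg adjustment, threshold 0.05), and each fold change gives KO relative to WT. DESeq2 1.42.0 and limma 3.58.1 were alternatives, with other scalings, filters and samples left out in turn. Coordinates came from GENCODE M21 (GRCm38), which held 34267 of 34745 identifiers, and coding sequences from its transcripts. The procedure was tested on simulated counts. Exact sign-flip permutation tests of the order of subunit levels were run, but no p is given because the genes and the order came from the same libraries.

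Named genes were the subunits, *Med23*, list genes called by edgeR or DESeq2, up to 3 largest rises and falls per list without overlap, and the 2 genes most like each subunit. Of these, 1 list gene is not reported here by name. Markers are named by their own values. The genes overlapping *Ncf1* and *Rac1*, and *Spi1*, *Cebpa*, *Rac3* and the *Nox* and *Duox* genes, were picked once their values had been seen. The subunits and lists were chosen with earlier results of these data known.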

Additional observations from a re-analysis of the deposited data

How the results depend on the processing

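Over all genes edgeR called 9 (2 higher, 7 lower), and DESeq2 called 120 (50 higher, 70 lower). Limma voom called 0, with 948 at an unadjusted p under 0.05. Limma on log2(FPKM + 1) called 15 genes when the mean FPKM had to reach 1, and 1 gene with no filter. The fit without muscle genes, *H19*, *Igf2* and 2 abundant genes called 4, and leaving out 1 library gave 5 to 11. Of the subunits, DESeq2 called 1, *Rac1*, at -1.49 (adjusted p = 3.3e-05), and 1 transcription factor, *Irf8*. *Cyba* reversed to -0.12 without WT replicate 1 and -0.02 without KO replicate 3, with a range of -0.12 to 0.33 over libraries left out. Over the libraries left out, log2 fold changes ranged from 0.75 to 1.70 for *Ncf1*, 1.25 to 1.62 for *Ncf4*, -1.68 to -1.18 for *Rac1* and 0.31 to 0.44 for *Rac2*. *Cyba* over *Rac2* was -0.13 with M21 exon lengths, an alternative chosen after seeing the data. With 1 library left out, *Rac2* exceeded *Rac1* by 2.04 to 2.56, *Rac1* exceeded *Ncf4* by 2.00 to 2.69, *Ncf4* exceeded *Ncf1* by 1.43 to 1.75 and *Ncf1* exceeded *Cybb* by 3.75 to 4.40 on the log2 scale.

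The replicate block called 5 genes, all among the 9. Deviations of same-numbered libraries correlated at 0.032 to 0.170, and those of differently numbered libraries at -0.173 to 0.035. WT replicate 2 correlated about equally with KO replicate 1 (0.035) and KO replicate 2 (0.032). The labels do not say that equal numbers share a litter or day. The block was therefore kept as an alternative, and whether the numbers are pairs was not settled. With the block *Rac1* was at -1.43, *Ncf4* at 1.45, *Ncf1* at 1.32, *Rac2* at 0.38 and *Cyba* at 0.10, and the block changed no call on a subunit.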
